A study of Rattus norvegicus with 4 samples.

Results

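The genes of de novo lipogenesis, the synthesis of fatty acids from acetyl-CoA, were followed in nuclei of 2 rat fat depots. Of the 10 listed genes, 9 were found by symbol among the 32883 genes of the count files: Acly, Acaca, Acacb, Fasn, Me1, Elovl6, Scd, Pnpla3 and Srebf1. Mlxipl, which encodes the carbohydrate response factor ChREBP, was not found under that symbol and was not analysed here. The genes were listed by their function in the pathway, with earlier results of these data known. Nuclei came from snap-frozen tissue of naive male Dahl salt-sensitive rats (SS/HsdMcwiCrl) aged 16 weeks, a strain whose blood pressure rises on a high-salt diet. There were 2 libraries of thoracic aorta perivascular adipose tissue (taPVAT) and 2 of subscapular brown adipose tissue (BAT), from 2 rats for each tissue. No group was treated, and the rats of all libraries had the same Teklad feed. Housing temperature was also the same for all libraries, so an effect of cold was not tested. Libraries are numbered 1 and 2 within a tissue. Whether 1 rat gave both tissues, or whether a number marks a shared rat or day, is not stated.

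In lipogenesis, ATP citrate lyase splits citrate into acetyl-CoA, acetyl-CoA carboxylases turn it into malonyl-CoA, and fatty acid synthase joins these units into palmitate with NADPH as the reductant. Elongation and desaturation then give stearate and oleate. Transcription of the enzymes is driven by SREBP-1c downstream of insulin and by ChREBP downstream of glucose. Brown fat is known for running synthesis and oxidation of fatty acids side by side, above all in the cold.

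Totals were 63654436 to 158140959 unique molecular identifiers (UMIs) per library. Nuclei were required to show 500 detected genes, which 12336 to 42979 per library did, with medians of 2783 to 4595 UMIs and 6.74% to 10.1% mitochondrial UMIs. The targeted recovery was 10000 per library. Empty or shared droplets were not sought, so some barcodes counted as nuclei may not be single nuclei. Between 93 and 381 barcodes were shared by any pair of libraries. Adipocyte nuclei were gated by 12 marker genes, none of them a lipogenesis gene, and numbered 29465 (replicate 1) and 9017 (replicate 2) in taPVAT and 26140 and 19780 in BAT. Plin1, Pparg, Pde3b and Lipe were each seen in 84.7% to 98.5% of all kept nuclei of a library, so these alone could meet the minimum of 4 markers. Nuclei 1 adipocyte marker short of the gate numbered 77 to 574, and those with 1 other-class marker too many 885 to 4202. Of the 12 adipocyte markers 11 reached 20 CPM in a library in gated adipocytes, which the gate itself favours. Of these Plin4 was seen in only 8.24% to 22.8% of the gated nuclei. Pnpla2 lay under 1 CPM in each library. The markers of the other 11 classes summed to at most 275 CPM per list, except Schwann markers at 688 to 871 CPM, with Sox10 and Cdh19 under 1 CPM everywhere. The adipocyte markers summed to 11092 to 13306 CPM. CPM scales the UMIs of a gene to a total of 1000000 UMIs within its class and library. Since a level in a class is a share of all its UMIs, less of 1 transcript and more of others cannot be told apart, and levels of different genes were not ranked because nuclear UMIs are not scaled by gene length.

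Upstream sequence is shown for 3 of the 6 genes with a RefSeq window, as examples of levels that differed between replicates of a tissue. These are Scd, high in 1 library only, Pnpla3, higher in replicate 1 of both tissues, and Srebf1, lower in replicate 1 of both. Each line gives the 250 bases before an annotated start, 5′ to 3′, from RefSeq on the build GRCr8, which is not the build of the counts. Capitals mark matches on either strand to CACGTG (a form of the E-box), TCACNCCA (a form of the sterol response element core), CCAAT or GGGCGG (the GC box). Other forms of the E-box and of the sterol response element were not searched for.
Scd (chr1:253231732-253231981, minus strand): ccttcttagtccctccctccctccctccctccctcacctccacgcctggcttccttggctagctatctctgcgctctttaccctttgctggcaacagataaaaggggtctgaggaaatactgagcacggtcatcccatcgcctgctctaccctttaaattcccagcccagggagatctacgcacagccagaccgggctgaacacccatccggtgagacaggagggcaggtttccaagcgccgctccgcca
Pnpla3 (chr7:117173278-117173527, plus strand): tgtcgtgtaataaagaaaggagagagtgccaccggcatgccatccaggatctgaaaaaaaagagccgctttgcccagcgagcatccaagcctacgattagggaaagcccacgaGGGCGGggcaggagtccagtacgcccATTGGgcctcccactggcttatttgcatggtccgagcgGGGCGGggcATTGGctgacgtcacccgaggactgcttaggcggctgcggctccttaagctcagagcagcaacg
Srebf1, first window (chr10:45529165-45529414, minus strand): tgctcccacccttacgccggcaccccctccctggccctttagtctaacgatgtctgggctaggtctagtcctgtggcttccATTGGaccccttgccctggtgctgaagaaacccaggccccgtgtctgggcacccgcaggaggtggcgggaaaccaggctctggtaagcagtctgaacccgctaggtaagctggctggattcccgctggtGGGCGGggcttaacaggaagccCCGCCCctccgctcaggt
Srebf1, second window (chr10:45519011-45519260, minus strand): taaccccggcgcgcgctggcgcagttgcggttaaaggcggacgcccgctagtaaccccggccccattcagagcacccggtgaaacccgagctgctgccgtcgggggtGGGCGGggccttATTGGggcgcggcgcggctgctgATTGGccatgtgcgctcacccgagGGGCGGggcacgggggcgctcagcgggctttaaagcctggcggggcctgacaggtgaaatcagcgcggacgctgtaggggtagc
No CACGTG and no TCACNCCA was found in these windows, which leaves other forms of these elements open. Scd matched none of the 4 motifs. Pnpla3 held 2 CCAAT and 2 GGGCGG matches, and the Srebf1 windows held 1 and 2 CCAAT matches and 2 GGGCGG matches each. Of 33469 such windows over the genome, 34.0% held CCAAT, 30.5% GGGCGG, 5.59% CACGTG and 3.24% TCACNCCA. The other genes with a window were Acly, Acacb and Me1. Counts at the 3′ end of transcripts do not separate the Srebf1 starts.

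Acly and the carboxylase genes encode the enzymes that make acetyl-CoA and malonyl-CoA. Acly (ENSRNOG00000016924), which encodes ATP citrate lyase, measured 926 CPM in taPVAT adipocytes of replicate 1 and 1426 CPM of replicate 2, against 686 and 679 CPM in the BAT libraries. Acaca (ENSRNOG00000034013), the carboxylase that feeds synthesis, measured 3743 and 3021 CPM in taPVAT and 2136 and 1087 CPM in BAT, in the same order, with means of 3382 ± 511 and 1612 ± 742 CPM (SD, n = 2). For both genes the lower taPVAT library still exceeded the higher BAT library. Acacb, the carboxylase at the mitochondrial surface whose malonyl-CoA restrains fatty acid import, measured 2102 and 1502 CPM in taPVAT and 2327 and 1438 CPM in BAT. Its tissues overlapped, and replicate 1 was the higher in both.

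Fasn (ENSRNOG00000045636), which encodes fatty acid synthase, measured 1352 CPM in the first taPVAT library and 533 CPM in the second, and 860 and 341 CPM in BAT. The tissue means were 943 ± 579 and 601 ± 367 CPM (SD, n = 2). Replicate 1 of BAT lay above replicate 2 of taPVAT, so the tissues overlapped. Me1, the malic enzyme that supplies NADPH, measured 531 and 633 CPM in taPVAT against 367 and 209 CPM in BAT, with no overlap. Elovl6, the elongase that carries palmitate to stearate, was sparse at 10.7 and 21.8 CPM in taPVAT and 5.10 and 9.32 CPM in BAT. Its tissues did not overlap either, although taPVAT replicate 1 stood only slightly above BAT replicate 2.

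Scd (ENSRNOG00000013552), the stearoyl-CoA desaturase, measured 334 CPM in taPVAT replicate 1 and 32.8, 42.1 and 53.1 CPM in taPVAT replicate 2 and BAT replicates 1 and 2. A single library was high and the other taPVAT library was the lowest of the 4. Pnpla3, which encodes a lipid droplet protein and is a known target of SREBP-1c, measured 671 and 252 CPM in taPVAT and 316 and 125 CPM in BAT. Srebf1, the gene of SREBP-1 itself, measured 91.3 and 183 CPM in taPVAT and 135 and 221 CPM in BAT. Its order was the reverse of that of Fasn and Pnpla3, with replicate 2 the higher of each tissue.

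**Figure D1:**
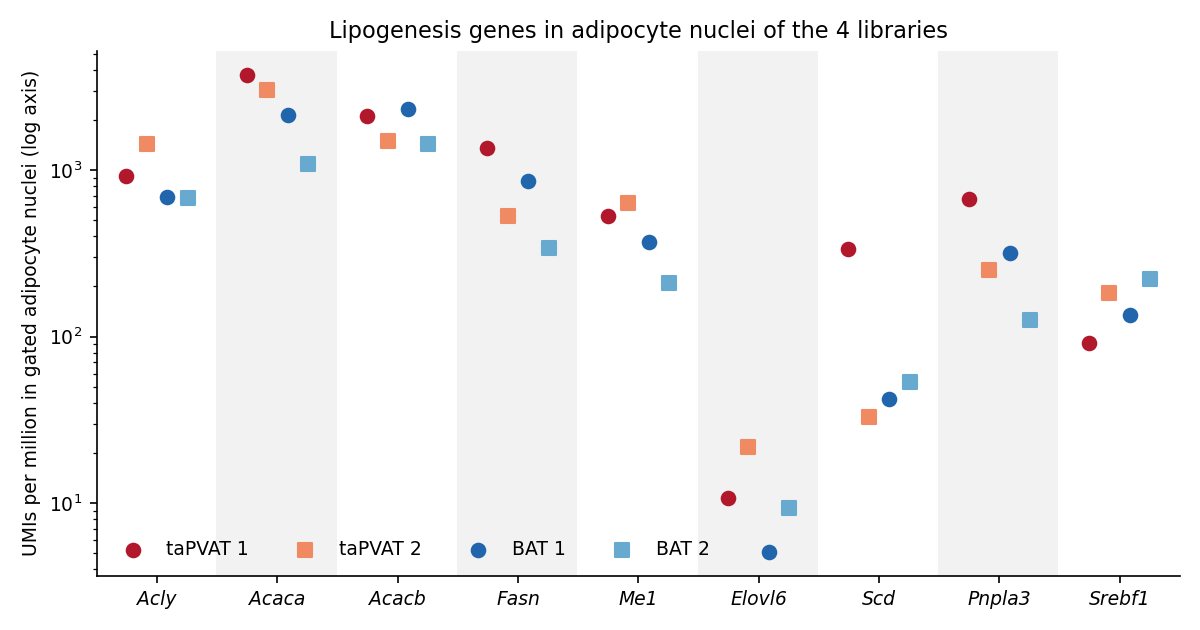
CPM in gated adipocyte nuclei (log axis) for 9 lipogenesis genes, with 1 point per library. Acly, Acaca, Me1 and Elovl6 have both taPVAT points above both BAT points, and Scd has 1 point at 334 with the others between 32.8 and 53.1.

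Whether the depots differ was tested on UMIs summed over adipocyte nuclei, 2 taPVAT against 2 BAT libraries. No lipogenesis gene passed the threshold of an edgeR adjusted p of 0.05, against a background of 0% of 15826 genes. The smallest adjusted p of any gene was 0.293, and 324 genes passed 0.05 before adjustment. DESeq2 called 58 genes (0.258%), none of them a lipogenesis gene. Of all genes tested 49.1% had a log2 fold change, taPVAT over BAT, below 0. Those of the lipogenesis genes were above 0 for 7 of the 9, with a median of 1.07 against 0.0060 over all genes tested. They were 1.94 ± 0.94 (SE) for Scd, 1.22 ± 0.51 for Elovl6, 1.12 ± 0.39 for Acaca, 1.10 ± 0.59 for Pnpla3 and 1.07 ± 0.36 for Me1. For Acly and Fasn they were 0.84 ± 0.35 and 0.69 ± 0.57, and for Acacb and Srebf1 -0.02 ± 0.35 and -0.33 ± 0.47. The edgeR adjusted p was 0.99998 for all 9. The unadjusted p was 0.0243 for Me1 and 0.0290 for Acaca, and lay above 0.05 for the others.

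The 4 genes with no overlap between the tissues, Acaca, Acly, Elovl6 and Me1, all had both taPVAT libraries above both BAT libraries, as did 8.97% of all genes. No lipogenesis gene had both taPVAT libraries below, as 10.6% of all genes did, and 19.6% of all genes showed no overlap in either direction. Taken within each replicate number, 6 genes were higher in taPVAT in both numbers, against 23% of all genes. They were Acaca, 1.75-fold in number 1 and 2.78-fold in number 2, Elovl6 at 2.09- and 2.34-fold, and Pnpla3 at 2.12- and 2.02-fold. Fasn stood at 1.57- and 1.56-fold, Acly at 1.35- and 2.10-fold, and Me1 at 1.45- and 3.03-fold. Past 1.5-fold in both numbers were Fasn, Acaca, Elovl6 and Pnpla3, against 2.94% of all genes. Scd was 7.94-fold higher in taPVAT in number 1 and stood at 0.618 of the BAT level in number 2. BAT replicate 2 was the lowest library for Fasn, Acaca, Acacb, Acly, Pnpla3 and Me1, but not for Elovl6, Scd or Srebf1. Its adipocyte nuclei had a median of 9.72% mitochondrial UMIs, against 6.15% to 6.97% in the other libraries. Their median depth was 2883 UMIs, against 3217 to 4964. The part of these differences in the folds between tissues was not tested. A fit with the replicate number as a block called 6 of the 9 genes higher in taPVAT, against 2.07% of genes called in either direction, with Scd, Acacb and Srebf1 not called. The labels do not establish the numbers as pairs, so these calls are given as an alternative only. With 4 libraries, the block also leaves little from which to estimate the spread. Over all kept nuclei, only 2 of 99 values of lipogenesis genes newly passed the threshold, under 11 alternatives that include this block.

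Single libraries decided some directions. Without taPVAT replicate 1 the log2 fold change of Fasn was -0.11 and that of Scd -0.49, and without BAT replicate 2 that of Srebf1 was 0.12. Scd passed the edgeR threshold only without BAT replicate 2 (log2 fold change 2.16, adjusted p = 0.0042), with adjusted p-values from 0.068 upward under its other alternatives. Over all kept nuclei, with no gate, edgeR again called no lipogenesis gene (0% of 17047 genes, 503 at an unadjusted p under 0.05, 115 by DESeq2), and the log2 fold changes lay between -0.37 for Srebf1 and 2.00 for Scd.

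**Figure D2:**
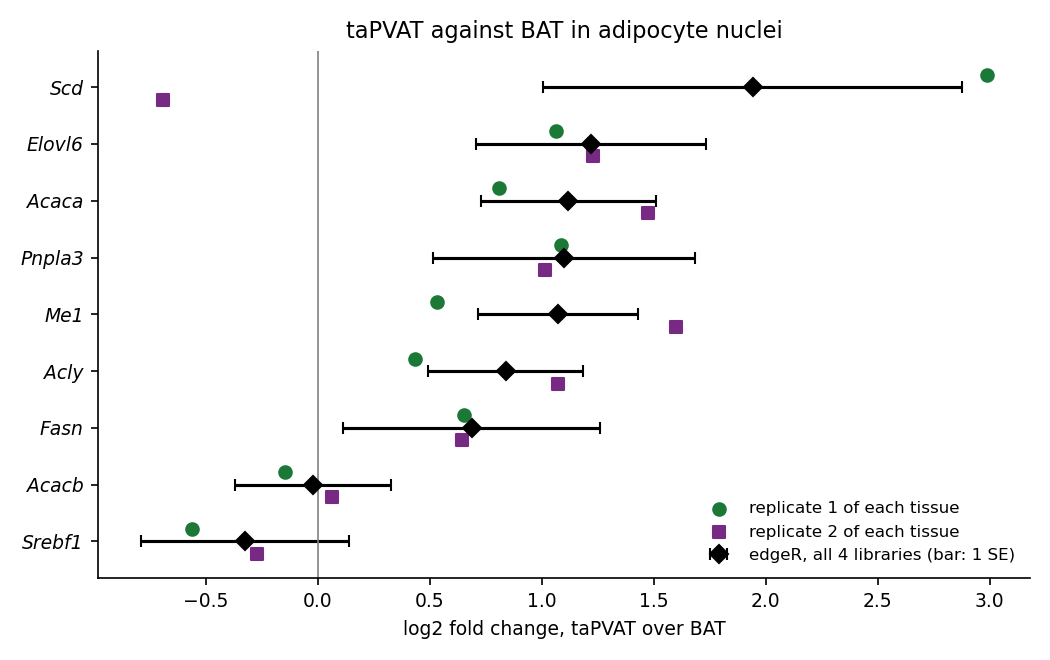
log2 fold changes of taPVAT over BAT in adipocyte nuclei, from edgeR over the 4 libraries (diamonds, bars of 1 SE) and from the libraries of replicate 1 and of replicate 2 (circles and squares). Elovl6, Pnpla3 and Fasn have nearly the same value in both numbers, and Scd is at 2.99 in number 1 and -0.69 in number 2.

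The spread between libraries of 1 tissue was as large as the difference between tissues for several genes. Fasn was 2.54-fold higher in replicate 1 than in replicate 2 of taPVAT and 2.52-fold higher in BAT. Pnpla3 was 2.66- and 2.53-fold higher. These were the 2 genes of the 9 past 2-fold in both tissues, which 4.35% of all genes were (11% in taPVAT and 9.96% in BAT taken alone). Acaca (1.24- and 1.97-fold) and Acacb (1.40- and 1.62-fold) were also higher in replicate 1 of both, so that 4 of the 9 had this direction, against 40.8% of all genes. Srebf1 stood in replicate 1 at 0.499 and 0.611 of replicate 2, and Elovl6 at 0.489 and 0.547, the direction of 31.4% of all genes. Both were over 1.5-fold lower in replicate 1 of each tissue, as were 9.12% of all genes. Acly (0.650 and 1.01) and Me1 (0.838 and 1.76) did not keep 1 direction. With 1 library on each side, these folds carry no test. Slc25a1, the mitochondrial citrate carrier and a gene of the precursor list, had the same order, with 71.5 and 35.0 CPM in taPVAT and 41.1 and 19.97 CPM in BAT. In fibroblast nuclei it stood at 97.4% to 121% of its adipocyte level.

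Scd was 10.2-fold higher in replicate 1 than in replicate 2 of taPVAT, and stood at 0.794 of replicate 2 in BAT. Among 6121 genes that reached 20 CPM in a library, 2 (0.0327%, or 0.0126% of all genes tested) were over 5-fold higher in taPVAT replicate 1 than in each other library. They were Scd and Adgrl3, an adhesion receptor gene found by this count, which measured 30.8 CPM there and 2.25 to 5.86 CPM elsewhere. In that library Scd measured 263 to 398 CPM over 9 other gated classes, among them 343 CPM in fibroblast, 398 CPM in vascular endothelial and 369 CPM in T or NK lymphocyte nuclei. Within depth groups of adipocyte nuclei, or mitochondrial groups cut within each library, the fold between the taPVAT libraries lay between 8.19 and 11.7. Whether reads are shared with Scd2, a close copy, is not known. Scd2 measured 3.05 CPM in taPVAT replicate 1 and 0.855 to 1.30 CPM in the other libraries.

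**Figure D3:**
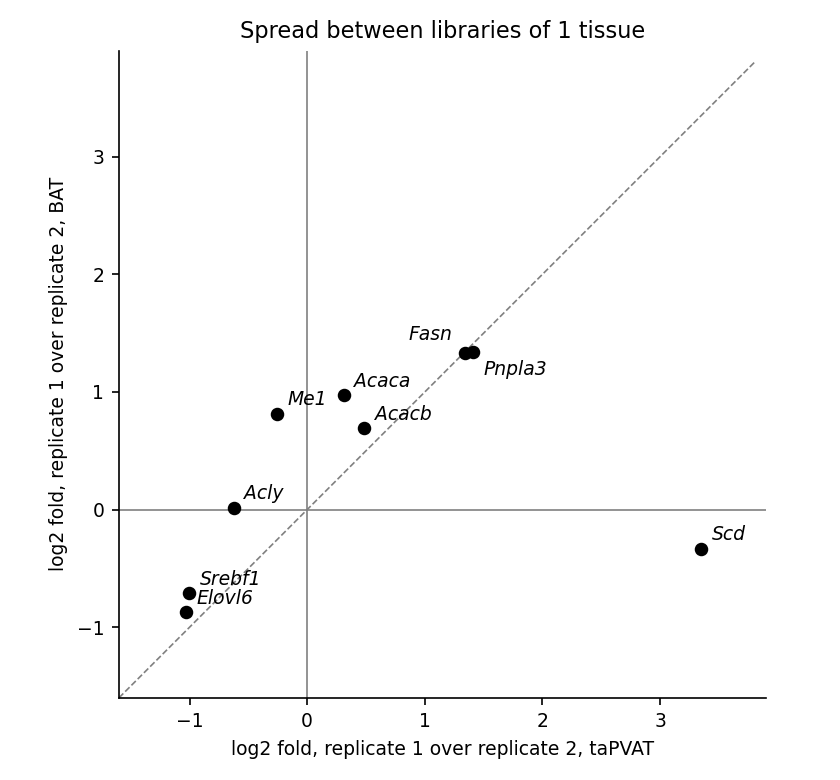
log2 fold of replicate 1 over replicate 2 in adipocyte nuclei, taPVAT on the x axis and BAT on the y axis, with 1 point per gene and the line of equal values dashed. Fasn and Pnpla3 lie together near 1.3 to 1.4 on both axes, Srebf1 and Elovl6 lie below 0 on both, and Scd lies at 3.35 and -0.33.

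Within each library the genes were compared between adipocyte nuclei and nuclei of fibroblasts (610 to 1477 per library) or vascular endothelium (558 to 3840), with the library as a term in edgeR. Over fibroblasts 7 of the 9 genes were higher in adipocytes, against 18.7% of 15488 genes called higher and 37.9% called in either direction. The log2 fold changes were 0.92 ± 0.21 (SE) for Elovl6, 0.92 ± 0.15 for Acacb, 0.86 ± 0.16 for Acaca, 0.79 ± 0.12 for Pnpla3, 0.70 ± 0.14 for Acly, 0.65 ± 0.15 for Me1 and 0.64 ± 0.10 for Srebf1, with edgeR adjusted p-values of 0.00074 to 0.0070. Fasn at 0.28 ± 0.11 (adjusted p = 0.066) and Scd at 0.09 ± 0.13 (adjusted p = 0.605) were not called. Over vascular endothelial nuclei the same 7 genes were called, against 18.4% of 15134 genes called higher and 39.7% in either direction, with log2 fold changes of 0.53 to 0.73. There Fasn measured 0.09 ± 0.11 (adjusted p = 0.508) and Scd 0.09 ± 0.14 (adjusted p = 0.659).

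These folds depend on the scaling. The fits called 2892 genes higher and 2976 lower against fibroblasts, and 1356 and 3784 with total UMIs as the scale. Against vascular endothelial nuclei they called 2791 and 3219, and 1814 and 3761 with total UMIs, or 4153 and 3004 with RLE size factors (4136 and 3081 with DESeq2). Total UMIs moved the median of all genes from 0.05 to -0.17 and from 0.06 to -0.07. The 7 genes were called higher under each of these scales, while with total UMIs Scd turned to -0.13 and -0.062, and Fasn to -0.063 against vascular endothelial nuclei. Fasn passed the threshold against fibroblasts under 5 alternatives, among them RLE size factors (adjusted p = 0.025) and DESeq2 (0.0012). Without BAT replicate 2 Acly and Elovl6 lost the call against vascular endothelial nuclei (adjusted p = 0.055 and 0.053), and Elovl6 also without BAT replicate 1 (0.060).

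Adipocyte markers gave UMIs in fibroblast and vascular endothelial nuclei as well, so lipogenesis levels there were not read as expression by those classes. No background correction was run, and background RNA, droplets shared with adipocytes and expression in these classes were not told apart. The 11 adipocyte markers that reached 20 CPM had a median of 55.6% to 74.5% of their adipocyte CPM in fibroblast nuclei and 69.6% to 78.9% in vascular endothelial nuclei. Acaca stood at 49.3% to 74.8% in fibroblast nuclei and Acacb at 48.0% to 71.1%, both in the range of the markers. Fasn stood at 88.5% to 101.7% in fibroblast and 95.9% to 113% in vascular endothelial nuclei, and Scd at 85.5% to 161% and 78.1% to 123%. Among the markers Adipoq, the gene of the hormone adiponectin, stood at 89.9% to 104% and 89.1% to 110%. For Fasn and Scd these data do not place the transcripts in adipocyte nuclei. The classes also differed in RNA quality, with a median mitochondrial share of 6.15% to 9.72% in adipocyte, 9.87% to 14.3% in fibroblast and 11.2% to 16.3% in vascular endothelial nuclei. Its part in the class differences was not tested. Scd2, the close copy of Scd, was lower in adipocytes than in fibroblasts (log2 fold change -1.98 ± 0.32, edgeR adjusted p = 0.00093).

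**Figure D4:**
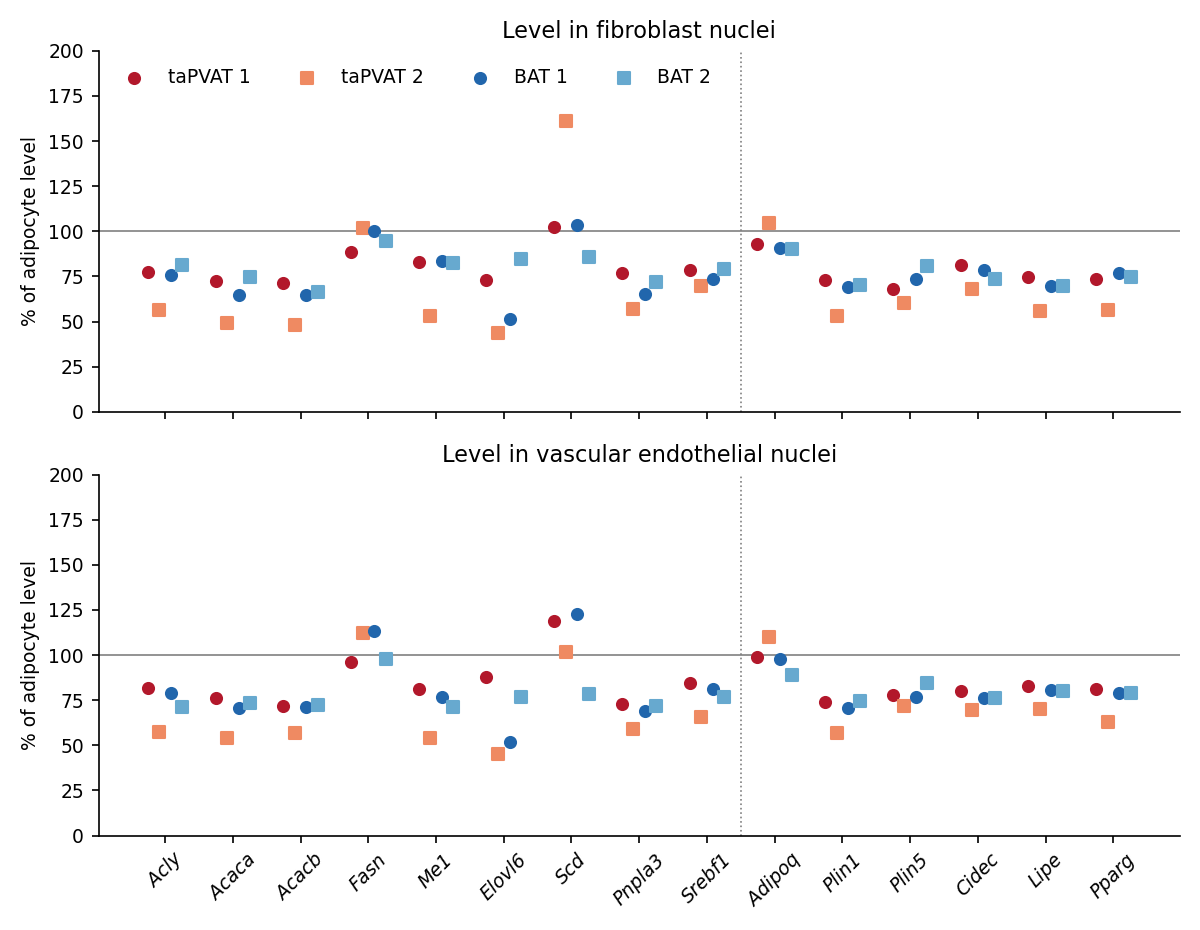
Level of 9 lipogenesis genes and, right of the dotted line, 6 adipocyte markers in fibroblast (top) and vascular endothelial nuclei (bottom), as a percentage of the CPM in adipocyte nuclei of the same library. Fasn and Scd lie around 100% with Adipoq, and the other genes lie mostly between 43.5% and 88.0% with the other markers.

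Levels also varied when adipocyte nuclei were ordered by mitochondrial share or depth. In the 3 equal groups by mitochondrial share, the highest over the lowest group gave 1.39 to 1.75 for Fasn over the 4 libraries, 1.06 to 2.13 for Scd and 1.18 to 1.55 for Srebf1. The ratio was 0.723 to 0.795 for Acaca, 0.844 to 0.887 for Acacb and 0.663 to 0.819 for Elovl6. Of the markers Adipoq gave 1.46 to 1.61, and the median of 11 gave 1.03 to 1.10. By depth the order was the reverse. Nuclei with at least 5000 UMIs over those under 2000 gave 0.420 to 0.537 for Fasn and 1.37 to 1.77 for Acaca. These are values within libraries, with no test, and the part of depth or mitochondrial RNA in the levels was not tested. Some of the differences above were about as large within the groups, and others were smaller. The mitochondrial groups were cut within each library, so groups of the same name did not have equal shares in different libraries. The highest groups of BAT replicates 1 and 2, for example, had means of 11.9% and 15.3%. Over the 3 depth and 3 mitochondrial groups, Pnpla3 kept 2.52- to 2.75-fold between the taPVAT replicates, 2.19- to 2.72-fold between the BAT replicates and 1.80- to 2.21-fold between the tissues. Acaca kept 1.69- to 2.86-fold between the tissues, and Elovl6 1.64- to 2.87-fold. Fasn gave 1.79- to 2.80-fold between the taPVAT replicates and 2.49- to 2.99-fold between the BAT replicates. Between the tissues it gave 1.27- to 1.65-fold in number 1 and 1.40- to 2.12-fold in number 2, so that in some groups it lay under 2-fold between replicates and under 1.5-fold between tissues. Direction was not kept among the groups by Me1 between the taPVAT replicates, Acly and Scd between the BAT replicates, Acacb between the tissues and Srebf1 between the tissues in number 2.

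To compare single nuclei at equal depth, each adipocyte nucleus was thinned to 2000 UMIs, which left out 5839 and 328 shallower nuclei of the taPVAT libraries and 2186 and 3963 of the BAT libraries. Of the 9 genes a nucleus showed a mean of 5.46 and 4.45 in taPVAT and 4.55 and 3.60 in BAT. The tissue means were 4.95 ± 0.72 and 4.07 ± 0.67 (SD, n = 2), with an exact two-sided permutation p of 0.667, and 2 against 2 libraries cannot reach 0.05 (the smallest p they allow is 0.33333). Nuclei with none of the genes numbered 1, 4, 4 and 38. Acaca was seen in 97.9% and 94.1% of thinned taPVAT nuclei and 90.9% and 79.9% of thinned BAT nuclei (97.6%, 97.0%, 94.4% and 84.2% without thinning). Thinned vascular endothelial nuclei, with unthinned medians of 2041 to 2275 UMIs against 2883 to 4964 in adipocytes, showed Acaca in 94.2%, 63.8%, 82.0% and 66.4%. The adipocyte share was the higher in each library, with 95% Wilson intervals that do not meet. All such intervals cover counting error only.

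Scd was seen in 47.2% and 5.85% of thinned taPVAT adipocyte nuclei and 8.08% and 6.75% of thinned BAT nuclei (66.6%, 12.5%, 16.5% and 10.4% without thinning). In vascular endothelial nuclei the shares were 48.3%, 7.59%, 8.51% and 7.92%, at or above those of adipocytes, so the shares do not place Scd in adipocyte nuclei. The 95% Wilson intervals were 46.6% to 47.9%, 5.37% to 6.36%, 7.74% to 8.43% and 6.37% to 7.15% in adipocyte nuclei. In vascular endothelial nuclei they were 46.2% to 50.4%, 5.06% to 11.2%, 7.13% to 10.1% and 6.49% to 9.64%. Fasn was seen in 89.2%, 61.2%, 79.6% and 46.4% of adipocyte nuclei (96.3%, 86.8%, 94.97% and 61.9% without thinning) and in 87.2%, 60.3%, 80.0% and 44.5% of vascular endothelial nuclei. The Wilson intervals of these shares met in 3 of the 4 libraries and not in taPVAT replicate 1, where the adipocyte share was the higher. Pnpla3 was seen in 63.4%, 31.1%, 41.1% and 17.6% of thinned adipocyte nuclei (73.9%, 52.97%, 60.9% and 25.4% without thinning) and in 55.4%, 20%, 31.5% and 13.5% of thinned vascular endothelial nuclei, so that its adipocyte share was the higher in all 4 libraries. Elovl6 was seen in 1.01% to 3.79% of thinned adipocyte nuclei (2.28% to 10.3% without thinning) and 0.148% to 1.89% of vascular endothelial nuclei, where 2 to 40 nuclei carried it.

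Co-detection asks whether a nucleus with 1 lipogenesis gene more often shows another. Over the 36 pairs the median odds ratio in thinned adipocyte nuclei was 1.23 and 1.27 in taPVAT and 1.12 and 1.12 in BAT, against 1.004 to 1.03 over 55 pairs of adipocyte markers. The marker pairs are no neutral reference, because the nuclei were gated on these markers, and with the stricter gate their medians were 0.88 to 0.99. The variance of the number of genes per nucleus was 1.11 to 1.23 of that for independent genes. Of the 36 pairs 20 lay above 1 in all 4 libraries and 4 below 1 in all 4. Acaca with Acly, successive steps of the pathway, had odds ratios of 2.26 and 3.31 in taPVAT and 1.71 and 1.28 in BAT. Acaca was seen in most nuclei, so nuclei with both genes were only 1.0047 to 1.019 of the number expected for independent genes. Acaca with Acacb gave odds ratios of 2.45, 1.51, 3.78 and 1.08, with the libraries in the same order. Both were seen in most nuclei, and nuclei with both were 1.001 to 1.008 of the number expected. The odds ratios of Acaca with Pnpla3 were 1.88, 1.75, 1.41 and 1.25, and those of Fasn with Scd 1.31, 1.68, 1.26 and 1.46. For Fasn and Scd the class levels did not place the transcripts in adipocyte nuclei, and both genes were higher in nuclei rich in mitochondrial RNA.

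For Srebf1 the ratios were lower. Its median odds ratio with the other 8 genes was 0.90 to 1.08, and only its pairs with Fasn (1.06 to 1.15) and Scd (1.04 to 1.60) lay above 1 in all 4 libraries. With Acaca it gave 0.739 to 0.972, with Acacb 0.611 to 0.868 and with Elovl6 0.674 to 0.943, below 1 in all 4. The fourth such pair was Acacb with Scd at 0.586 to 0.911. Each of these 4 pairs joins a gene that was higher in nuclei rich in mitochondrial RNA (Srebf1 at 1.18 to 1.55, Scd at 1.06 to 2.13) with one that was lower there (Acaca, Acacb and Elovl6 at 0.663 to 0.887). Srebf1, Fasn and Scd were all higher there. Not all pairs of this make-up lay below 1. Fasn with Acaca (1.04 to 2.34) and Scd with Elovl6 (1.161 to 1.4961) lay above 1 in all 4 libraries. Acaca with Scd lay above 1 in 3 libraries, Fasn with Elovl6 in 2 and Fasn with Acacb in 1. The part of mitochondrial RNA in these ratios was not tested. With Ucp1, the uncoupling protein of brown fat, Acacb had the highest odds ratio of the 9 genes in each library (1.27 to 4.34). Acacb was seen in most nuclei, and nuclei with both were only 1.0036 to 1.0149 of the number expected. By that measure Acacb was the highest only in taPVAT replicate 2. Me1 (1.0048) stood highest in taPVAT replicate 1, and Elovl6 in the BAT libraries (1.0161 and 1.0349). Fasn (0.864 to 0.929), Scd (0.743 to 0.929) and Srebf1 (0.827 to 0.958) lay below 1 with Ucp1 in all 4 libraries. Nuclei of 1 library are not replicates, so the ratios are descriptions.

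**Figure D5:**
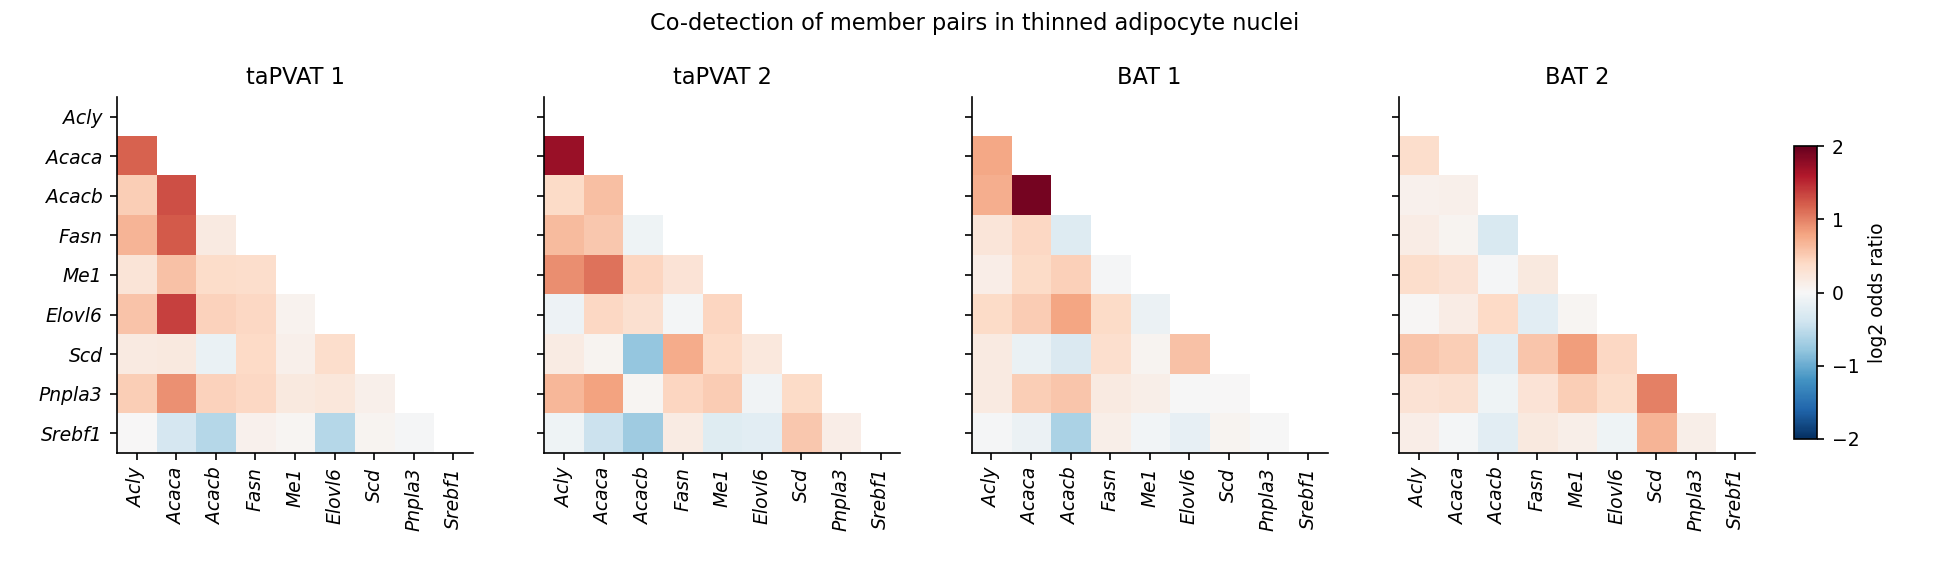
log2 odds ratio of seeing both genes of a pair in an adipocyte nucleus thinned to 2000 UMIs, 1 panel per library, red above 0 and blue below. The Acaca column is red against all genes but Srebf1 and, in BAT 1, Scd, and the Srebf1 row is blue against Acaca, Acacb and Elovl6 in the 4 panels.

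Among 4145 genes seen in at least 5% of thinned adipocyte nuclei in each library, the pattern most like the summed lipogenesis UMIs was sought over nuclei, as the lowest Pearson r of log values over the 4 libraries. Each lipogenesis gene was left out of the sum it was compared with. The sum is of UMIs, so genes with many UMIs, such as Acaca, weigh most in it. The genes that led were Acly (0.20 to 0.43 over the libraries), Acaca (0.18 to 0.36), Tmem110 (0.16 to 0.26), Gpam (0.15 to 0.36), Acsl5 (0.13 to 0.36), Hk2 (0.12 to 0.25), Fasn (0.10 to 0.26) and Slc27a1 (0.09 to 0.16). Gpam starts triglyceride assembly, Acsl5 activates long-chain fatty acids, Hk2 is a hexokinase and Slc27a1 a fatty acid transporter. The coefficients are small, are taken over 8689 to 23954 nuclei that share a library, and are given with no test. Acsl5 measured 1242 and 1169 CPM in taPVAT and 528 and 269 CPM in BAT, and Gpam 1188 and 862 against 622 and 238 CPM, both with no overlap between the tissues. Their log2 fold changes of 1.65 ± 0.38 (SE) and 1.30 ± 0.48 were not called (edgeR adjusted p = 0.99998). Of the other lipogenesis genes Pnpla3 ranked 11, Me1 12, Scd 57, Acacb 3603 and Srebf1 3853 of the 4145 genes, and Elovl6 was too sparse to rank. The rank of Acacb was set by BAT replicate 2 (r = -0.03), with r of 0.12 and 0.05 in taPVAT and 0.13 in BAT replicate 1. Srebf1 had r of -0.04 to 0.06 over the libraries. The marker Adipoq ranked 4087, with r of -0.10 to -0.01.

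Neighbouring steps were read from lists of genes. Between the tissues no gene of the 6 lists passed the edgeR threshold. The counts above 0 below stand beside 49.1% of all genes tested with a log2 fold change below 0. In precursor and NADPH supply 11 of 14 tested genes had a log2 fold change above 0, with a median of 0.23 against 0.0060 over all genes. Slc25a1 (0.84 ± 0.46, SE) and Hk2 (0.61 ± 0.31) stood furthest. In triglyceride assembly 8 of 10 lay above 0 (median 0.30), led by Gpam and Agpat2 (0.58 ± 0.45), and in the sterol arm 10 of 12 (median 0.50), with Lss, lanosterol synthase, at 1.05 ± 0.31. In elongation and desaturation 7 of 9 lay above 0 with a median of 0.06, and Tecr (0.40 ± 0.30) and Hsd17b12 (0.28 ± 0.28) stood furthest among the genes that reached 20 CPM in a library. Of the control genes 13 of 19 lay above 0 (median 0.14), and Insig1, which holds SREBP in the endoplasmic reticulum and is itself an SREBP target, stood at 0.83 ± 0.38 and Ppargc1b at 0.28 ± 0.35. Of 8 insulin signalling genes 2 lay above 0 (median -0.05), with Irs2 at -0.50 ± 0.40 and Pdk4 at -0.27 ± 0.76.

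Against the other classes, the counts of each list stand beside 18.7% of all genes called higher in adipocytes than in fibroblasts and 18.4% than in vascular endothelial nuclei (37.9% and 39.7% in either direction). Differences between the lists were not tested. In triglyceride assembly 9 of 10 genes were higher in adipocytes than in fibroblasts and 9 of 10 than in vascular endothelial nuclei, among them Lpin1 (0.97 and 0.79), Gk, Gpam, Agpat2, Lpin2 and Agpat3. In precursor and NADPH supply 12 and 10 of 14 tested were higher and none lower, with Acss2 (0.88 and 0.66), Hk2, Pfkl, Pkm, Pc and Pdhb the clearest. Insulin signalling gave 6 of 8 and 7 of 8 higher, with Akt2 (0.79 and 0.69), Irs2, Pdk4, Insr and Irs1 in both, Pik3r1 called against vascular endothelial nuclei, and Akt1 lower there (-0.28). Of the 19 control genes 11 and 8 were higher, and Mid1ip1, whose product promotes polymerisation of acetyl-CoA carboxylase, was lower against vascular endothelial nuclei (-0.68). Ppargc1b (0.92 and 0.75), Thrb, Prkaa2, Trib3 and Insig1 were called in both, and Thrsp against fibroblasts. In the sterol arm 3 of 12 were higher in each (Lss, Hmgcs1 and Sc5d) and 1 was lower, Srebf2 at -0.51 and -0.56, a share near that of all genes. Elongation and desaturation had 4 of 9 higher and 4 lower against fibroblasts and 2 of 10 and 3 against vascular endothelial nuclei, where the share called higher was again near that of all genes. Hacd2 and Hsd17b12 were higher against both classes and Elovl5 against fibroblasts (0.35, adjusted p = 0.067, against vascular endothelial nuclei), while Fads2 at -5.24 and -3.63 and Fads1 at -2.80 against fibroblasts, the desaturases of polyunsaturated fatty acids, were lower in adipocytes. The other lower genes of this list were Scd2 against fibroblasts, Elovl7 against vascular endothelial nuclei (-4.13) and Elovl1 against both (-0.61 and -0.51). Adipocyte levels lay near the floor for Elovl7, at 0 to 0.0611 CPM, and were low for Fads2, at 0.263 to 1.60 CPM. Akt1, Mid1ip1, Elovl7 and Elovl1 were chosen after their values were seen.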

How the data were processed

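Nuclear RNA of 4 libraries, 2 of taPVAT and 2 of BAT, was measured with a 3′ droplet kit (10x Genomics). Per the submitters' processing notes, the authors used Cell Ranger 7.1.0 and the build Rnor_6.0. The deposited values are raw UMI counts per gene and barcode, per the file headers. The annotation release and the handling of intronic reads were not found in the labels, so genes that overlap are uncertain.

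Nuclei with at least 500 detected genes were kept. A nucleus was called adipocyte with UMIs of at least 4 of 12 adipocyte markers and at most 1 marker of each other class. Another class needed at least 3 of its markers and fewer than 3 of any other non-adipocyte class. Nuclei that met this minimum for both vascular and lymphatic endothelium alone were called lymphatic. Adipocyte markers were not limited in these classes, so droplets shared with an adipocyte could enter them. Markers seen in over 20% of nuclei of a library were not counted for the other classes. This limit was 10% at first and was raised after the data were seen, because fibroblast markers had been lost. No doublet or empty-droplet caller was run on the deposited barcodes. UMIs were summed per library and class and tested with edgeR 4.0.16 (quasi-likelihood, TMM, filterByExpr, Benjamini-Hochberg) in R 4.3.3, with DESeq2 1.42.0 as an alternative. The edgeR step was tested on simulated counts with known folds. The sums hold 48404192 to 121589885 UMIs of adipocyte nuclei per library. Other parts used Python 3.11.15 and SciPy 1.17.1. The replicates are separate libraries, and p-values between the tissues measure the spread between them. In the block fit, spread shared by libraries of the same number is taken out. The class fits have the library as a term, so their p-values measure the spread of the class difference over libraries. The genes, related lists and tests were chosen with earlier results of these data known. Named were all the lipogenesis genes, and in each related list up to 6 called genes by smallest p or, with none called, the 2 with the largest change that reached 20 CPM in a library. An item that this rule names is not reported here. Upstream sequences came from RefSeq (GRCr8), matched by symbol.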

Additional observations from a re-analysis of the deposited data

How the results depend on the processing

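Between the tissues edgeR called 0 genes in adipocyte nuclei and 0 in all nuclei. The counts were also 0 with RLE size factors, total UMIs, at least 1000 detected genes and at most 5% mitochondrial UMIs, and in adipocytes with a stricter gate, an upper limit on UMIs, at least 5000 UMIs and without AC134224.3 and mitochondrial genes. They were 58 and 115 with DESeq2 and 39 and 56 with no filter. Leaving out 1 library gave 3 to 109 in adipocytes and 0 to 40 in all nuclei, where the lone library of a tissue is assumed to vary like the others. With the replicate number as a block the counts were 327 and 157. Same-numbered libraries deviated together from their tissue means (Pearson r = 0.611 over 15826 genes), as a hint from the data, not the design. The limit of 5000 UMIs and the total UMI scale were chosen after seeing the data. The counts against fibroblasts (5868) and vascular endothelial nuclei (6010) stayed within 1.5 times, except 3587 against the latter without BAT replicate 2. Leaving out 1 library gave 4210 to 5276 and 3587 to 6069.

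Of 396 values of lipogenesis genes under alternatives, 362 kept direction and side of the threshold, 14 newly passed it, 3 no longer passed it and 17 changed sign. Leaving out 1 library gave, in adipocytes, -0.11 to 1.39 for Fasn, -0.30 to 0.27 for Acacb, -0.49 to 2.80 for Scd and -0.98 to 0.12 for Srebf1 on the log2 scale. In all nuclei it gave -0.19 to 1.41, -0.36 to 0.27, -0.47 to 2.87 and -0.95 to 0.042. Scd gave -0.029 to 0.20 against fibroblasts and -0.064 to 0.18 against vascular endothelial nuclei. With total UMIs Scd stood at -0.13 and -0.062 there, and Fasn at -0.063 against vascular endothelial nuclei. Fasn without taPVAT replicate 1, Acacb without taPVAT replicate 2 or BAT replicate 1, Scd without taPVAT replicate 1, and Srebf1 without taPVAT replicate 1 or BAT replicate 2 had the other sign, and so did Scd against both classes without BAT replicate 2. The cause of these changes was not tested. The mean number of lipogenesis genes per thinned nucleus differed between tissues by 0.88, by 0.86 at 1000 UMIs, by 0.89 with the stricter gate and by 0.37 to 1.39 without 1 library. The median odds ratio over libraries was 1.18, and 1.12 to 1.23 under these settings. Depth limits Elovl6 most, and intervals from counts cover counting error only.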
